A study of Mus musculus with 4 samples.

Results

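Notch receptors, ligands and target genes were followed in EGFP-labelled interstitial cells of the mouse testis by RNA sequencing. The set held 10 genes, found by their symbols in the deposited expression table: the receptors Notch1, Notch2 and Notch3, the ligands Jag1, Jag2 and Dll4, and the target genes Hes1, Hey1, Heyl and Nrarp. They were 10 of 22802 rows, each in a row of its own. All animals were C57BL/6J mice carrying mFLE-Cre and CAG-CAT-EGFP, a reporter that expresses EGFP where Cre recombinase has acted, and testes were taken at postnatal day 10. The labels do not spell out the element that drives Cre. Cells were sorted by laminin staining into laminin-negative and laminin-positive groups, and each group has 2 samples. Sample labels call both populations EGFP-positive, whereas the design text calls the laminin-negative one weak in EGFP, so laminin staining and EGFP level cannot be told apart here. The labels do not say whether the 2 samples of a population are separate animals; p-values therefore reflect the spread of these samples alone, and that spread may be technical.

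Notch signalling passes between touching cells. A ligand of the Jagged or Delta-like family on one cell binds a receptor on its neighbour, proteases release the receptor's intracellular domain, and that domain joins the DNA-binding protein Rbpj and a Mastermind coactivator to switch on genes such as those of the Hes and Hey repressors. In blood vessel walls Notch3 is the receptor typical of smooth muscle cells and pericytes, and in the testis Notch signalling is known to restrain the differentiation of fetal Leydig cells from interstitial progenitors.

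Levels are in FPKM, the number of fragments divided by transcript length in kilobases and by the size of the library, which can be compared between genes because they are given per length. FPKM summed to 491475 to 548986 per library. The number of sequenced fragments was not given, but the lowest values bear on it. Among genes with 1 annotated transcript of at least 1 kb, 65 to 87 of the 100 lowest products of FPKM and length lay within 20% of their median. A band around that median held 73 to 93 genes, against 7 or 8 in the band of equal width just below. The band of equal width just above held 27 to 43, so the step was not clean on that side. If that level is a single fragment, 1 FPKM on a 1 kb transcript stood for 28.0 to 30.3 fragments, and the members rested on about 29 (Dll4) to 9715 (Notch2) fragments per library. This is an estimate. Marker lists separated the populations: 10 of 10 smooth muscle and myoid genes were higher in laminin-positive cells (summed FPKM 5942 to 6040 against 219.7 to 239.7) and 7 of 7 Leydig cell genes were lower (161.9 to 208.2 against 4613 to 4870). Of 9 pericyte genes 8 were higher and 1 was lower, and of the 9 listed macrophage genes with a row, 8 were tested and those 8 were higher, 5 of them having passed the filter only through the laminin-positive libraries (summed FPKM 45.6 to 52.6 against 4.27 to 8.78). Of 10 Sertoli cell genes 8 were tested, with 4 higher and 1 lower (summed FPKM 236.7 to 271.0 against 217.8 to 220.8). Clu, the one called lower, was the largest part of that sum in laminin-negative libraries, at 129 and 136 FPKM against 98.3 and 77.2. The 4 called higher were Amh, Dhh, Cldn11 and Aard, by 8.29-fold, 11.2-fold, 15.6-fold and 2.03-fold. Of 10 germ cell genes 8 were tested, with 6 higher and 1 lower (27.7 to 29.4 against 49.3 to 51.0). Kit carried that germ cell sum, at 38.7 and 37.4 FPKM in laminin-negative libraries against 2.39 and 1.84; the other 9 summed to 25.9 to 27.04 against 10.7 to 13.6, the opposite direction. Of these lists, 2 Sertoli and 3 germ cell genes also reached the test only through the laminin-positive libraries. So did 1 smooth muscle and myoid gene, Synpo2, and 1 pericyte gene, Higd1b, both among those counted as higher. Beside the marker counts, 26.6% of all tested genes were called higher and 26.3% lower. The part of these cell types in the results on Notch genes was not tested. In sorted bulk samples, fewer cells of a type and less RNA per cell cannot be told apart.

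Laminin-positive cells held more Notch3, Heyl and Nrarp, by 4.95-fold, 9.52-fold and 7.13-fold. Notch2, Jag1 and Hes1 were higher by 1.49-fold, 1.22-fold and 1.21-fold. Notch1 went the other way and was 1.54-fold higher in laminin-negative cells. Hey1 did not pass the test, and Jag2 and Dll4 were too low to be tested. A gene was tested where it reached 1 FPKM in at least 2 libraries, which left 12348 genes and 8 of the 10 members; Nrarp passed only through the laminin-positive libraries. The test was limma on log2(FPKM + 1), two-sided, with p-values adjusted over all 12348 genes by the Benjamini-Hochberg method and called below 0.05. Of the 8 tested members 6 were called higher and 1 lower, beside 26.6% higher and 26.3% lower of all tested genes. Members with a log2 difference of at least 1 numbered 3, where 7.29% of all tested genes were called higher by that much. The median log2 difference was 0.41 over the tested members and 0.01 over all tested genes. The members were chosen with results of these libraries known, so these shares describe them and are not independent evidence.

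**Figure D1:**
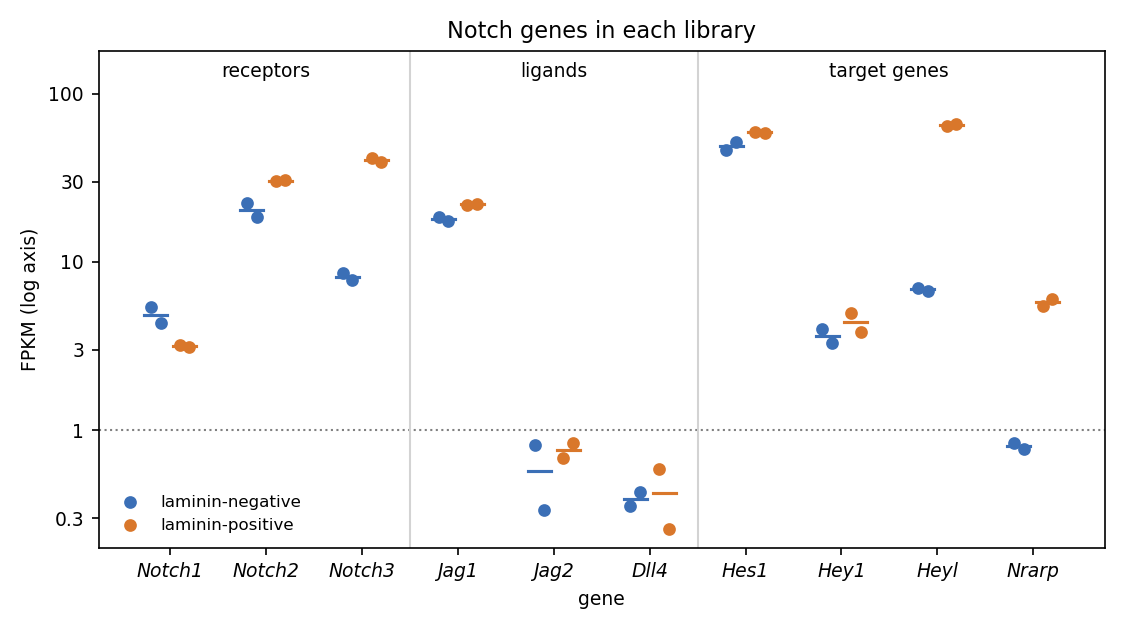
FPKM on a log axis for each of the 10 genes; each point is 1 library, each bar the mean of 2, and the dotted line marks 1 FPKM. Heyl, Notch3 and Nrarp show the widest gaps between laminin-negative (blue) and laminin-positive (orange) libraries, Notch1 is the member with both laminin-negative libraries on top, and Hey1, Jag2 and Dll4 overlap.

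The receptors differed from one another in size and direction. Notch3 (chromosome 17, 32120820 to 32166852, minus strand, GRCm38) stood at 8.57 and 7.78 FPKM in the laminin-negative and 41.7 and 39.2 FPKM in the laminin-positive libraries. Both laminin-positive libraries lay far above both others, from a mean of 8.18 ± 0.557 (SD, n = 2) to 40.5 ± 1.81 FPKM. The log2 difference was 2.18 (± 0.09 SE, adjusted p = 7.55e-09 by limma), and 96.9% of tested genes differed by less in either direction. Notch2 (chromosome 3, 98013527 to 98150361, plus strand), a receptor expressed in many tissues, was at 22.3 and 18.6 against 30.2 and 30.6 FPKM. Its libraries did not overlap either, as was so for 77.2% of all tested genes, and its log2 difference was 0.55 (± 0.09 SE, adjusted p = 0.000575 by limma). Without variance shared across genes the adjusted p of Notch2 by limma was 0.115.

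Notch1 (chromosome 2, 26457903 to 26516663, minus strand), the receptor best known from blood vessel and T cell development, was at 5.38 and 4.35 FPKM in laminin-negative and at 3.20 and 3.13 FPKM in laminin-positive libraries. It was the member called lower, with a log2 difference of −0.49 (± 0.12 SE, adjusted p = 0.00562 by limma), and the call ended without variance shared across genes (adjusted p = 0.134). Notch4, the remaining mammalian receptor and one typical of endothelium, was at 0.650 and 0.423 against 4.07 and 3.97 FPKM (log2 difference 1.71 ± 0.13 SE, adjusted p = 9.22e-07 by limma). It passed the filter only through the laminin-positive libraries. By mean FPKM Notch4 was 7.49-fold higher there. The log2(FPKM + 1) scale understates this, because its laminin-negative values lie below 1 FPKM. Of 13 endothelial markers 7 were not tested, among them Pecam1 at 0.126 and 0.141 against 0.869 and 0.615 FPKM. The others gave 2 higher, 3 lower and 1 not called, beside 26.6% higher and 26.3% lower of all tested genes. Over the 13, tested or not, both laminin-positive libraries lay above both laminin-negative ones for 9 genes and below them for 3. Such a lack of overlap, in either direction, held for 77.2% of all tested genes. The 2 called higher were Esam (0.216 and 0.531 against 6.34 and 6.45 FPKM) and Emcn (0.585 and 0.900 against 1.87 and 2.32 FPKM), which also passed the filter only through the laminin-positive libraries. Tie1 and Sox17 were listed at 0 in both laminin-negative libraries. Cdh5, Tek and Sox18, which are also on that list, were higher in laminin-negative cells. Of these, Tek passed the filter only through the laminin-negative libraries. The part of endothelial RNA in the Notch4 value was not tested.

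Ratios within a library do not move with the scaling between libraries. Notch3 was at 0.384 and 0.419 times the Notch2 level in the laminin-negative libraries and at 1.38 and 1.28 times in the laminin-positive ones, so the order of these receptors was reversed. Against Notch1, Notch3 was 1.59 and 1.79 times as high in laminin-negative and 13.0 and 12.5 times as high in laminin-positive libraries. The summed FPKM of the 4 receptors was 34.0 ± 4.08 in the laminin-negative population and 78.0 ± 1.66 in the laminin-positive one (SD, n = 2). Of that sum Notch2 made up 60.1% ± 0.539 and Notch3 24.1% ± 1.25 in laminin-negative cells, against 38.9% ± 1.17 and 51.9% ± 1.21 in laminin-positive cells (SD, n = 2). Notch1 made up 14.3% ± 0.428 and 4.06% ± 0.0261. These shares were not tested: with 2 libraries a side, the smallest p an exact permutation test allows is 0.333.

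**Figure D2:**
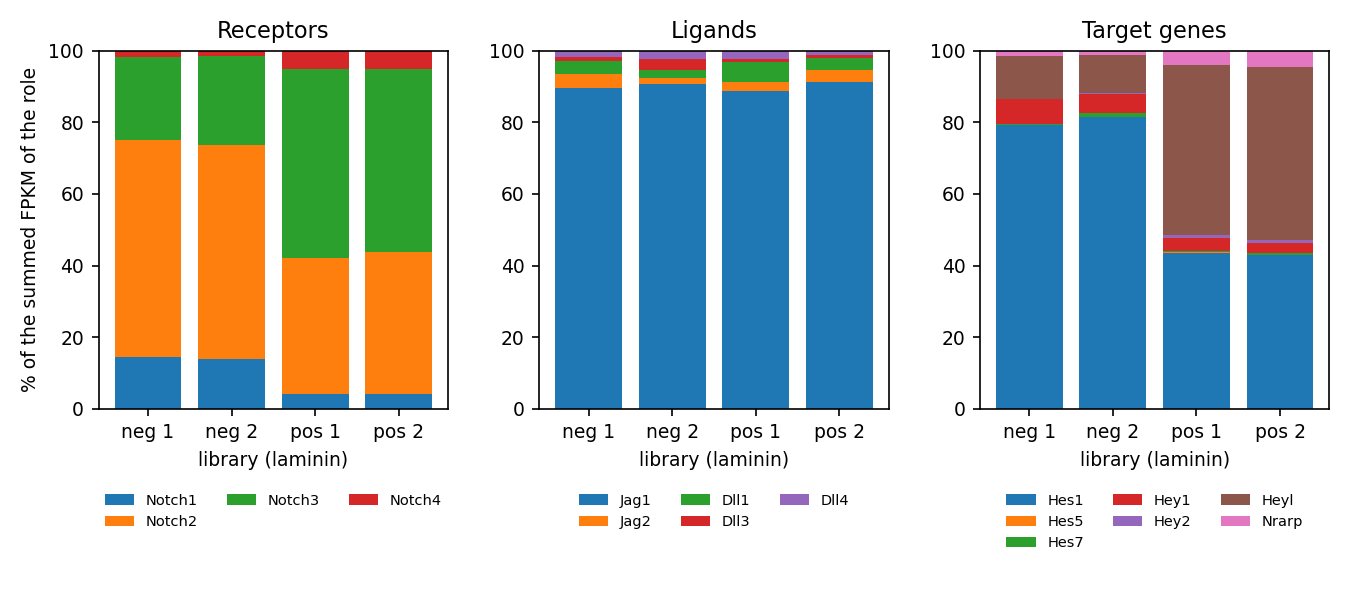
Stacked bars of each gene's share, in %, of the summed FPKM of its role in each of the 4 libraries, for receptors, canonical ligands and target genes. Notch3 takes 23.2% and 24.98% of the receptor sum in laminin-negative and 52.7% and 51.0% in laminin-positive libraries, Jag1 stays between 88.6% and 91.2% of the ligand sum, and Heyl goes from 12.04% and 10.7% to 47.4% and 48.5% of the target sum.

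The upstream sequences of Notch3 and Notch1 are shown because these receptors differed in opposite directions. They are the 250 bases before the RefSeq start on GRCm38.p6, read 5′ to 3′ on the gene's strand, at chr17:32166891-32167140 and chr2:26503823-26504072, both minus strand. Nrarp is shown beside them as the target gene with an entry in the same table (chr2:25180508-25180757, plus strand). The Notch1 window lies inside the interval given above for Notch1, which extends further upstream.
Notch3: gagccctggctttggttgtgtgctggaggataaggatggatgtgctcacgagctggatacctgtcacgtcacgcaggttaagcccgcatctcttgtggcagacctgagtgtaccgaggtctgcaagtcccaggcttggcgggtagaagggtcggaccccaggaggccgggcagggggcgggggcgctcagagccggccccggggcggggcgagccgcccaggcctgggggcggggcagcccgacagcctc
Notch1: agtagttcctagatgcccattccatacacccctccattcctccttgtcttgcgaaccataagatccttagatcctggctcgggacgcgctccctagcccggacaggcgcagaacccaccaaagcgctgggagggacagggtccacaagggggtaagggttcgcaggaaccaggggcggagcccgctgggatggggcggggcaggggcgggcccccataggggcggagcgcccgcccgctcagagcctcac
Nrarp: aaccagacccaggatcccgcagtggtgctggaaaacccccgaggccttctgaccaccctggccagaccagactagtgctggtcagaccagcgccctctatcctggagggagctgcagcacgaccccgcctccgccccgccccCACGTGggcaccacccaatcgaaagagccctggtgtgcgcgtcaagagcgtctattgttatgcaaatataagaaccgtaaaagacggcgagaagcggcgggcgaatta
Capitals mark CACGTG, an E-box of the kind bound by basic helix-loop-helix proteins such as the Hes and Hey families. Of the 10 members, 7 had an upstream sequence in the table used, and Hes1, Hey1 and Heyl did not. CACGTG was found in 1 of the 7, in Nrarp, starting 108 bases before the transcription start, and in 6.02% of 32851 upstream windows of the same length. TGGGAA, the core of the Rbpj site, was searched on both strands and was in 0 of the 7 windows and in 21.6% of all windows. The motifs do not overlap each other. A match is a description of letters, and its absence says only that these letters are not in this window.

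Among canonical ligands only Jag1 reached the filter. Jag1 (chromosome 2, 137081456 to 137116644, minus strand), which encodes the ligand Jagged1, was at 18.6 and 17.6 FPKM in laminin-negative and 21.9 and 22.1 FPKM in laminin-positive libraries. The populations did not overlap but lay close together, and the log2 difference was 0.27 (± 0.08 SE, adjusted p = 0.0156 by limma). The call ended without variance shared across genes (0.0646), without laminin-negative replicate 2 (0.0555), without laminin-positive replicate 1 (0.0770) and without laminin-positive replicate 2 (0.0941); the alternatives spanned 0.00300 to 0.0941. Jag2 (chromosome 12, 112907819 to 112929776) was at 0.813 and 0.337 against 0.684 and 0.845 FPKM, and Dll4 (chromosome 2, 119325784 to 119335962) at 0.352 and 0.431 against 0.586 and 0.258 FPKM. Both genes overlapped between populations, and by the estimate above they rested on about 29 to 131 fragments per library. Tested without a filter, they gave limma adjusted p = 0.437 and 0.908.

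Of the ligands that were not members, Dll1 was at 0.728 and 0.400 against 1.33 and 0.841 FPKM, and Dll3 was between 0.201 and 0.619 FPKM in the 4 libraries. Neither was tested. Jag1 thus made up 90.2% ± 0.776 of the summed FPKM of the 5 canonical ligands in the laminin-negative and 89.9% ± 1.78 in the laminin-positive population (SD, n = 2), and the sum itself was 20.1 ± 0.908 and 24.5 ± 0.335 FPKM. In laminin-negative cells Jag1 stood at 2.17 and 2.26 times the Notch3 level, and in laminin-positive cells at 0.525 and 0.564 times. The order of this ligand and this receptor was therefore reversed in the same way as that of Notch2 and Notch3.

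Proteins related to the ligands but lacking the part that binds receptors in the usual way, called noncanonical ligands, showed the widest differences of the pathway. Dner, a transmembrane protein with repeats like those of Delta and Notch, was at 3.89 and 4.37 FPKM in laminin-negative and 93.3 and 90.2 FPKM in laminin-positive libraries. This was a 22.2-fold difference (log2 difference 4.18 ± 0.08 SE, adjusted p = 7.48e-11 by limma). Dlk1, which is widely held to dampen Notch signalling, had the opposite pattern at 860 and 833 against 12.8 and 9.36 FPKM, or 76.3-fold lower in laminin-positive cells (limma adjusted p = 5.78e-11). Dlk2 was between 0.0702 and 0.209 FPKM and was not tested. Dner exceeded each canonical ligand in the laminin-positive libraries, and Dlk1 did so in the laminin-negative ones.

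The target genes divided into 2 with differences above a log2 value of 1 and 2 with small ones. Heyl (chromosome 4, 123233556 to 123249875, plus strand), a Hey family repressor, was at 7.002 and 6.72 FPKM in laminin-negative and 64.4 and 66.2 FPKM in laminin-positive libraries. Its log2 difference of 3.08 (± 0.08 SE, adjusted p = 3.49e-10 by limma) was the largest among the members, and 98.9% of tested genes differed by less. Nrarp (chromosome 2, 25180758 to 25183339, plus strand), a small ankyrin repeat protein that is induced by Notch and limits it, was at 0.838 and 0.776 against 5.45 and 6.06 FPKM. The populations were well apart, with a log2 difference of 1.90 (± 0.12 SE, adjusted p = 2.13e-07 by limma); because its laminin-negative values lie below 1 FPKM, the log2(FPKM + 1) scale understates it, and it was 2.69 with a pseudocount of 0.1.

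Hes1 (chromosome 16, 30064384 to 30067796, plus strand), a repressor that responds to Notch in many tissues and to other signals too, was at 46.2 and 51.3 against 59.0 and 58.7 FPKM. The laminin-positive libraries were both higher by a narrow margin (log2 difference 0.27 ± 0.08 SE, adjusted p = 0.0137 by limma). Its call ended without variance shared across genes (0.144), without laminin-negative replicate 1 (0.0615), without laminin-positive replicate 1 (0.0622) and without laminin-positive replicate 2 (0.0577); the alternatives spanned 0.00109 to 0.144. Hey1 (chromosome 3, 8663359 to 8667256, minus strand), a close relative of Heyl, was at 3.98 and 3.29 against 4.98 and 3.85 FPKM. These libraries overlapped, and the log2 difference of 0.22 did not pass the test (95% interval −0.08 to 0.52, limma adjusted p = 0.189).

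The target genes thus traded places within a library. Heyl was at 0.152 and 0.131 times the Hes1 level in laminin-negative and at 1.09 and 1.13 times in laminin-positive libraries. Against its relative Hey1, Heyl was 1.76 and 2.04 times as high in laminin-negative and 12.9 and 17.2 times as high in laminin-positive libraries. The summed FPKM of 7 canonical targets was 60.6 ± 3.42 and 136 ± 0.374, of which Hes1 made up 80.4% ± 1.44 and 43.2% ± 0.249 and Heyl 11.4% ± 0.967 and 48.0% ± 0.786 in laminin-negative and laminin-positive cells (SD, n = 2). Of the targets that were not members, Hey2 was at 0.0690 and 0.127 against 1.09 and 1.07 FPKM and passed the filter only through the laminin-positive libraries (log2 difference 0.92 ± 0.13 SE, adjusted p = 0.000145 by limma). By mean FPKM Hey2 was 11.0-fold higher in laminin-positive cells, which the log2(FPKM + 1) scale understates at such low levels. Hes5 was between 0 and 0.456 FPKM and Hes7 between 0.113 and 0.662 FPKM, and neither was tested.

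In laminin-negative cells the order of the members by mean FPKM was Hes1, Notch2, Jag1, Notch3, Heyl, Notch1, Hey1, Nrarp, Jag2 and Dll4. The 2 libraries of neighbours in this order did not overlap, except for Nrarp with Jag2 and Jag2 with Dll4. In laminin-positive cells the order was Heyl, Hes1, Notch3, Notch2, Jag1, Nrarp, Hey1, Notch1, Jag2 and Dll4, with no overlap between neighbours. Heyl moved from place 5 to place 1 and Notch1 from place 6 to place 8. With only 2 libraries, an order without overlap is a weak statement.

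**Figure D3:**
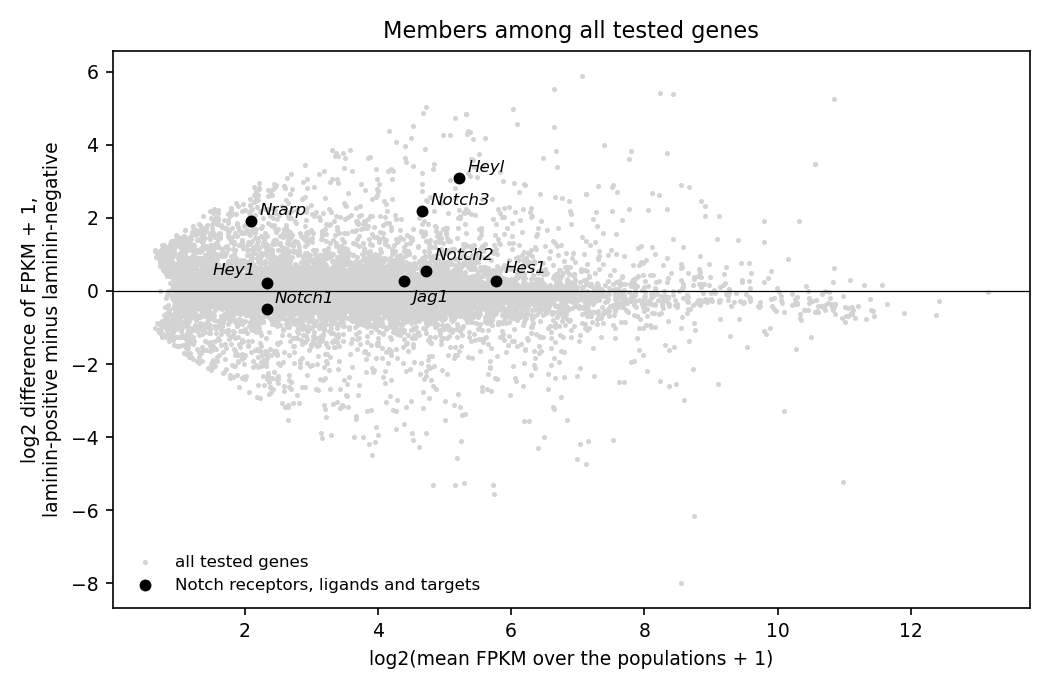
Each grey point is 1 of the 12348 tested genes, by its mean level on a log2 axis and its log2 difference, laminin-positive minus laminin-negative; black points are the 8 tested members. Heyl (3.08), Notch3 (2.18) and Nrarp (1.90) hold ranks 71, 209 and 304 by log2 difference, counted from the highest, and other tested genes reach 5.87 (Actg2). Notch2 (0.55), Jag1 (0.27), Hes1 (0.27), Hey1 (0.22) and Notch1 (−0.49) lie within the main cloud.

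Across the rest of the pathway, 50 further genes were listed and 41 tested, of which laminin-positive cells had 17 higher and 9 lower. Together these are 26 of 41, beside 52.9% called among all tested genes, and 4 of the 41 passed the filter only through the laminin-positive libraries. Their median log2 difference was 0.20, against 0.01 over all tested genes. With no sharing of variance between genes, 7 of them were called higher and 2 lower, beside 1346 and 1211 of all 12348 tested genes. With equal FPKM sums 23 of them were higher and 6 lower, beside 4239 and 2398 of all tested genes. Among these 41 genes, those called with a log2 difference of at least 1 in size were Notch4, Dner, Dlk1 and Neurl1a. Neurl1a, a ubiquitin ligase that acts on Notch ligands, was at 0.671 and 0.638 against 3.85 and 3.01 FPKM (log2 difference 1.41 ± 0.13 SE, adjusted p = 6.22e-06 by limma), having passed the filter only through the laminin-positive libraries. By mean FPKM Neurl1a was 5.24-fold higher there, which the log2(FPKM + 1) scale understates.

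Of 9 tested genes for the proteases that cut the receptor, 4 were lower in laminin-positive cells, beside 26.3% of all tested genes, namely Adam17 and the gamma-secretase genes Psen2, Ncstn and Psenen, and 2 were higher, beside 26.6%, namely Aph1b and Aph1c; Aph1c passed the filter only through the laminin-positive libraries. Psen2, a catalytic subunit, was at 19.1 and 16.5 against 8.81 and 8.72 FPKM (log2 difference −0.95 ± 0.10 SE, adjusted p = 1.26e-05 by limma). Adam10, the main protease for the first cut of an activated receptor, was at 27.3 and 27.4 against 25.6 and 30.3 FPKM and was not called (limma adjusted p = 0.845). Aph1b and Aph1c are near-identical neighbours in the mouse genome, so reads could be split between them. The call of Ncstn ended with equal FPKM sums (0.0926), and those of Adam17, Psen2, Aph1c and Psenen without variance shared across genes. Aph1b lost its call without laminin-positive replicate 1 or 2, and Psenen without laminin-positive replicate 1.

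In the nuclear complex 4 of 9 genes were higher and 1, Kat2a, was lower, a call that 10 of the 14 alternatives ended; over all tested genes these shares were 26.6% and 26.3%. The 4 were the 3 Mastermind coactivators Maml1, Maml2 and Maml3 and the corepressor gene Spen. Without laminin-negative replicate 2, or without laminin-positive replicate 1, the calls of Maml1 and Spen ended, and that of Maml1 also without laminin-positive replicate 2. With no sharing of variance between genes, Maml1, Maml3 and Spen were not called (limma adjusted p = 0.123, 0.108 and 0.237), and with no filter on low values Spen was not. Maml2 was at 3.17 and 2.88 against 6.13 and 6.13 FPKM (log2 difference 0.83 ± 0.11 SE, adjusted p = 7.29e-05 by limma), and Maml3 at 1.83 and 1.42 against 3.44 and 2.92 FPKM. Rbpj itself was at 14.3 and 13.6 against 16.4 and 16.0 FPKM and did not pass the test (log2 difference 0.20, limma adjusted p = 0.0678), although it did with equal FPKM sums (0.0144). Of 14 tested genes for ligand and receptor trafficking and ubiquitination, 5 were higher (Mib1, Neurl1a, Neurl2, Dtx1 and Dtx3) and 2 lower (Numb and Dtx4). Of the 14 alternatives 8 ended the call of Mib1. Those of Neurl2, Dtx3 and Dtx4 ended without variance shared across genes (limma adjusted p = 0.131, 0.13 and 0.0719). The receptor inhibitor Numb was at 18.1 and 16.3 against 10.6 and 10.7 FPKM (log2 difference −0.65 ± 0.09 SE, adjusted p = 0.000135 by limma), and the call ended without variance shared across genes (0.0536). Dtx1, a Deltex ubiquitin ligase that is itself induced by Notch in some cells, was at 19.5 and 17.9 against 31.7 and 32.4 FPKM (log2 difference 0.74 ± 0.08 SE, adjusted p = 2.07e-05 by limma). Of the glycosyltransferases that modify the receptor, 4 were tested, with Lfng and Poglut1 higher and Pofut1 lower. Without variance shared across genes the calls of Lfng, Poglut1 and Pofut1 ended (limma adjusted p = 0.17, 0.115 and 0.129). They also ended without laminin-positive replicate 2. Pofut1 lost its call with equal FPKM sums too (limma adjusted p = 0.10), and without laminin-negative replicate 1.

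**Figure D4:**
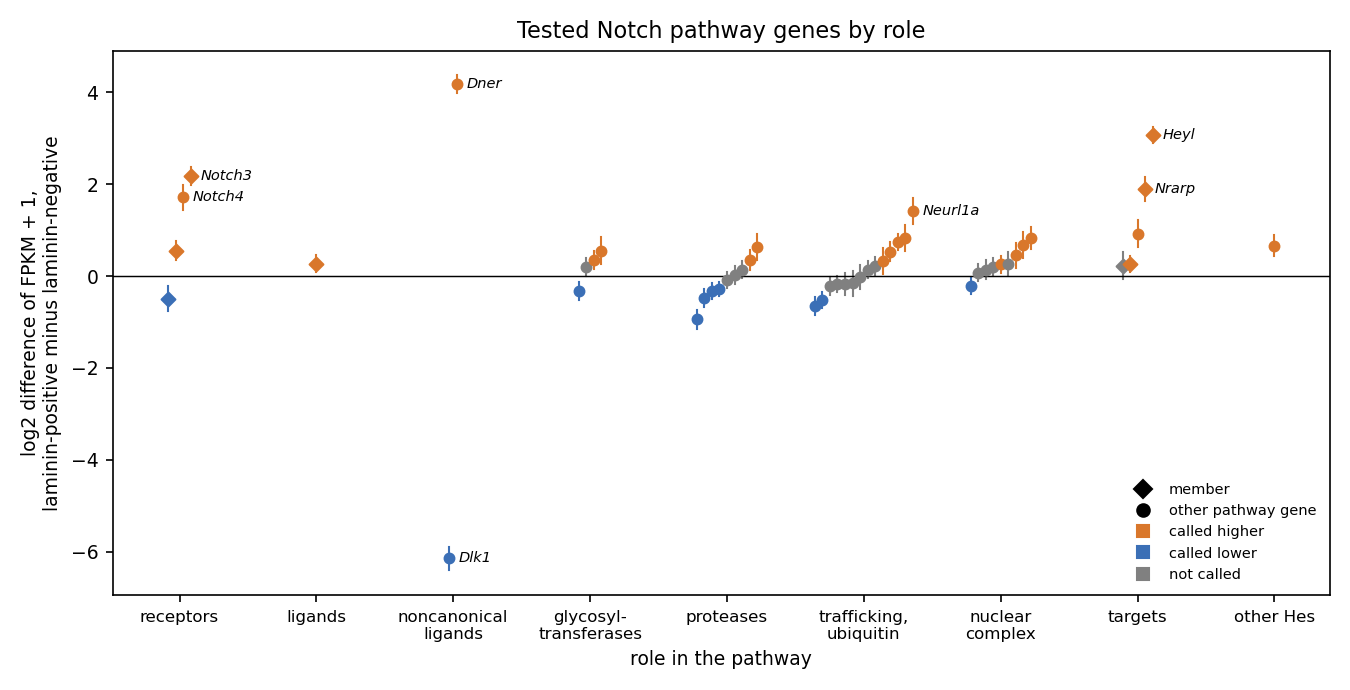
Log2 difference with its 95% interval from limma for each tested pathway gene, by role; diamonds are members, orange is called higher in laminin-positive cells, blue called lower and grey not called. Dner (4.18) and Dlk1 (−6.15) bound the range, receptors run from −0.49 to 2.18, targets from 0.22 to 3.08, and proteases stay between −0.95 and 0.63.

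For each role, the genes closest in pattern to the member with the largest called difference were sought by Euclidean distance over the 4 libraries of log2(FPKM + 1), centred on each gene's mean. Closest to Notch3 were Emilin1 (distance 0.0641), Bok (0.0717) and Smtnl2 (0.0802). Closest to Heyl were Fibin (0.0169), D630003M21Rik (0.0674) and Nalcn (0.0719), and closest to Jag1 were A930015D03Rik (0.0102), Ccdc85c (0.0128) and Serpinh1 (0.0131). With 2 populations of 2 libraries this mainly finds genes with a like difference. The smooth muscle genes Acta2 and Myh11 differed more than Heyl, by log2 differences of 5.24 and 5.39. On the same marker list Cnn1, Tagln, Actg2, Lmod1 and Mylk also differed more than Heyl, and Des (0.74), Synpo2 (1.48) and Smtn (2.03) differed less.

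GENCODE M21 places genes on the opposite strand within Notch1 (0610009E02Rik and Gm13568), Notch3 (Gm17276), Dll4 (Gm14207) and Nrarp (Gm38287). The library kit keeps strand, but no source used here gives the strand setting of the counting, so reads of these partners could be included. Within Notch2 lie Gm42819 and Gm42820 on the same strand. Of these genes Gm14207 has a row of its own, at 0 to 0.0851 FPKM.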

How the data were processed

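Per the labels' protocols, total RNA came from the RNeasy micro kit and libraries from the NEBNext Ultra Directional kit. The deposited values are FPKM per gene locus, 1 column per library, per the file headers; TopHat2 2.1.1 and Cufflinks 2.2.1 are listed, with no role given, per the submitters' processing notes. Build, annotation, strand setting and scaling: not given in the sources used here. Of 21203 loci set beside GENCODE M21 (GRCm38) by symbol, 99.6% overlapped, so GRCm38 coordinates are given. Upstream sequences are RefSeq's, on GRCm38.p6.

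From the FPKM, log2(FPKM + 1) was computed for 12348 genes with at least 1 FPKM in at least 2 libraries. Limma 3.58.1 (R 4.3.3) compared the populations using empirical Bayes with an intensity trend, without a replicate block, with 2 residual degrees of freedom and 8.21 (median) borrowed across genes. The code of the fit was run on simulated libraries in which 200 genes were changed. Far more genes were called in the real libraries, so that run does not measure how reliable these calls are. Replicates shared an identical value above 0 in 0 and 1 rows, so none was treated as a repeat deposit. Fold differences are ratios of mean FPKM. Alternatives varied pseudocount, filter, variance model, scaling, block and replicates; equal FPKM sums without Rn45s was added after seeing the data.

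All 10 members are named, as are the other canonical receptors, ligands and targets, the noncanonical ligands, and other pathway genes called with a log2 difference of at least 1 in size. Other genes were chosen after their values were seen. The members and lists were chosen with earlier results of these data known. Some pathway genes are not reported here and stand in none of the list counts.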

Additional observations from a re-analysis of the deposited data

How the results depend on the processing

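Notch3, Heyl and Nrarp kept their direction and their call in each of the 14 alternatives, with log2 differences of 2.11 to 2.29, 3.05 to 3.23 and 1.80 to 2.69. Hey1 was called in none of 13, at limma adjusted p of 0.0636 to 0.771, and no member changed direction. Without variance shared across genes limma called 1346 genes higher and 1211 lower. The other pathway genes then had 7 higher and 2 lower, and the members 3 higher and 0 lower. Counted at an unadjusted limma p under 0.05, the member counts were 5 and 0. With a filter of 5 FPKM the other pathway genes had 11 higher, fewer of them being tested, beside 2502 higher of 9274 tested genes. With a filter of 5 FPKM 0 members were called lower (0 at an unadjusted p under 0.05), because Notch1 was no longer tested. With equal FPKM sums the median of all genes shifted from 0.01 to 0.11 and the calls to 4239 higher and 2398 lower (63.9% against 50.3% higher); Notch1 was still called lower there, at −0.39, and 6 members were called higher. Leaving out 1 library at a time, no tested member changed direction. The calls of Jag1 and Hes1 ended in some of these fits, as given above. In each of them the lone library of a population was assumed to vary like the others.

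With the replicate number as a block, limma called 3376 genes higher and 3343 lower and the member calls did not change. Same-numbered libraries did not deviate together (r = 0.00809 across genes, over 2 pairs), so the numbers were not taken to pair samples. By the estimate from the lowest values, Jag2 and Dll4 had the fewest fragments over the 4 libraries. Nrarp rested on about 61 and 57 fragments in the laminin-negative libraries, against 394 and 474 in the laminin-positive ones.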
